A study of Arabidopsis thaliana with 12 samples.

Results

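Gene expression in seedlings with a mutated gene for the ATPase BRM was set directly against that in seedlings with mutated genes for the bromodomain proteins BRD1, BRD2 and BRD13. All 4 genotypes of the study were Arabidopsis thaliana of the Col-0 ecotype, sampled as whole seedlings at 14 days of age under long days, with 3 RNA sequencing libraries per genotype. These were WT, the mutants brm-1 and brd1,2,13, and the mutant that carries all these mutations (brm-1 brd1,2,13), referred to below as the combined mutant. The mutant alleles of BRD1, BRD2 and BRD13 are not described in the sources used here. The comparison used every gene record whose pairing of brm-1 with brd1,2,13 carried the status OK in the deposited table, 19162 of 31837 records in all, and the level of a record is its FPKM, the number of fragments for each kilobase of its transcript after scaling for library size. The table holds 1 FPKM per genotype, made from the 3 libraries together. No spread between libraries can be given beside any value below, no test between the genotypes was possible, and the depth of the libraries is unknown. A record is called higher in a mutant when FPKM + 1 differed 2-fold or more, and every log2 difference is log2(FPKM + 1) in brd1,2,13 minus that in brm-1, so that positive values mean higher in brd1,2,13. Adding 1 FPKM understates the difference of weakly expressed genes. In whole seedlings, fewer cells of a type and less RNA per cell cannot be told apart.

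BRM is an ATPase of SWI/SNF complexes, chromatin remodellers which use ATP to slide or evict nucleosomes and so open or close the DNA of promoters. BRD1, BRD2 and BRD13 are subunits of the BRM-containing complexes in Arabidopsis, and their bromodomains bind acetylated lysines of histone tails. SYD and the MINU proteins are the ATPases of the other SWI/SNF complexes of this plant. The comparison addresses which genes separate mutation of the motor from mutation of subunits that read histone acetylation. No protein was measured.

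The mutated genes were examined before all others. BRM (AT2G46020, TAIR10 chr2:18922528-18934088) was at 17.5 FPKM in WT, 0.0954 in brm-1, 18.5 in brd1,2,13 and 0.12 where both were lost, and its locus overlaps another record. BRD13 (AT5G55040, chr5:22327173-22331840) was at 14.4 FPKM in WT, 18.7 in brm-1, 0.223 in brd1,2,13 and 0.0194 when joined with brm-1. BRD1 (AT1G20670, chr1:7164166-7168166) kept a reduced level of 4.36 FPKM in brd1,2,13 and 4.76 in the combined mutant, against 12.7 in WT and 15.7 in brm-1. BRD2 (AT1G76380, chr1:28651102-28654580) was at 3.05 and 3.08 FPKM in these mutants, 7.04 in WT and 22.5 in brm-1. Each mutated gene was thus lower in the genotypes labelled as its mutants, and BRD2 stood above WT in brm-1. Of 9 genes for other SWI/SNF subunits none was 2-fold apart between the mutants: SWP73B was at 30.3 FPKM in brm-1 and 30.4 in brd1,2,13, ARP4 at 34.0 and 36.0, and MINU1 at 9.88 and 10.8.

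Between the mutants, 469 records (2.45% of those tested) were higher in brd1,2,13 and 487 (2.54%) were higher in brm-1, together 956 records or 4.99%. The median log2 difference over all records was 0.01, and the 5th and 95th percentiles were -0.69 and 0.75. The same records gave 7.77% past 2-fold between brm-1 and WT, 2.29% between brd1,2,13 and WT, 6.78% between the combined mutant and brd1,2,13, and 0.371% between the combined mutant and brm-1. More records separated the mutants from each other than separated brd1,2,13 from WT, fewer than separated brm-1 from WT, and the combined mutant was closest to brm-1. Just inside the 2-fold limit, within 0.1 on the log2 scale, lay 184 records, and 268 lay just outside it.

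**Figure D1:**
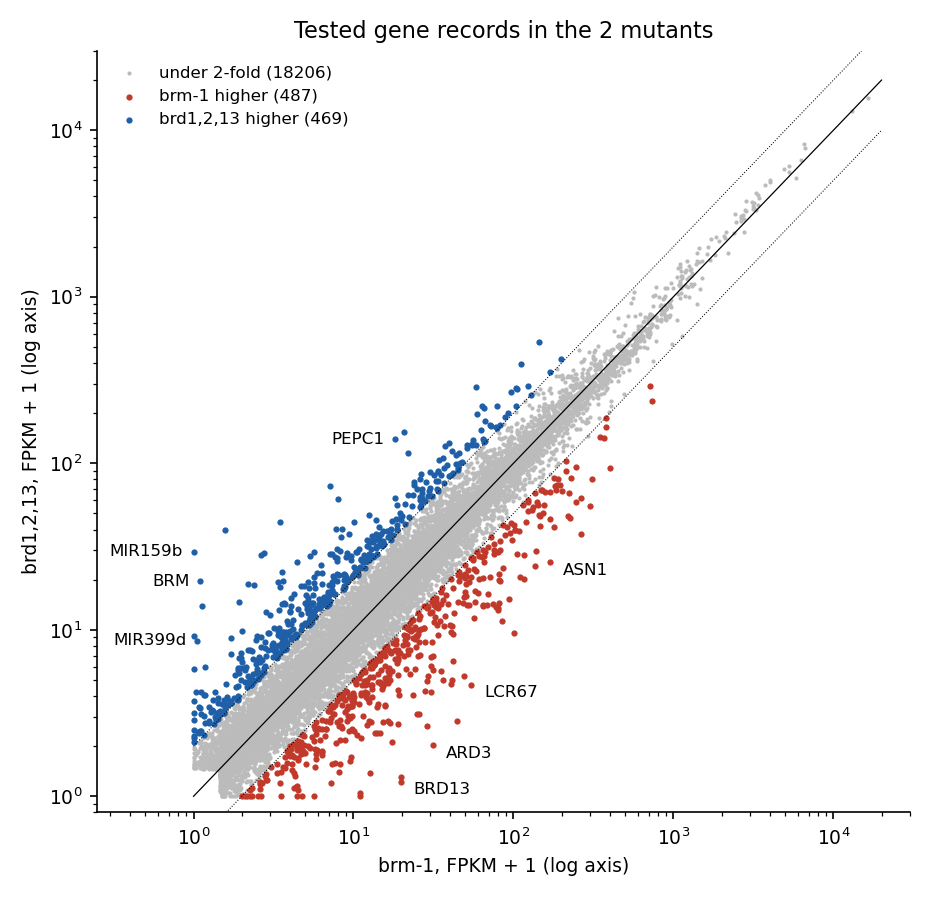
FPKM + 1 of each of the 19162 tested gene records in brm-1 (horizontal) and brd1,2,13 (vertical), both on log axes, with 1 point per record. Dotted lines mark a 2-fold difference, red points the 487 records higher in brm-1 and blue points the 469 higher in brd1,2,13. The most abundant records lie between the dotted lines.

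Genes of the phosphate starvation response were higher in brd1,2,13. Plants short of phosphate induce phosphatases that free it from organic compounds, enzymes that replace membrane phospholipids with galactolipids and sulfolipids, phosphate transporters, and the microRNA miR399, which targets the transcript of PHO2, an enzyme that marks transporters for removal. On the list for this response 5 of 10 tested genes were higher in brd1,2,13 and 0 were higher in brm-1, and all 10 had a positive difference, with a median of 1.12. MGD3 (MGDC, AT2G11810), a monogalactosyldiacylglycerol synthase that makes galactolipid, was at 15.6 FPKM in WT, 9.01 in brm-1, 43.2 in brd1,2,13 and 5.66 in the combined mutant. IPS1, a non-coding RNA that sequesters miR399, was at 34.8, 34.5, 84.2 and 15.1 FPKM in the same order. PAP14, a purple acid phosphatase, was at 10.8, 3.69, 17.4 and 1.2 FPKM. In these genes brd1,2,13 was the highest genotype and the combined mutant the lowest. PAP17 (36.5 FPKM in brm-1 and 125 in brd1,2,13) and MGD2 (5.33 and 21.0) were also past 2-fold, and both loci overlap other records. SPX1, a phosphate sensor protein, was at 86.6 and 172 FPKM, just under 2-fold at 0.98.

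The largest differences in this direction included genes of phosphate supply that the list did not hold. PEPC1 (AT1G17710), a phosphatase of phosphoethanolamine and phosphocholine, was at 27.6 FPKM in WT, 17.1 in brm-1, 138 in brd1,2,13 and 9.14 in the combined mutant, a log2 difference of 2.94. PS2 (AT1G73010), a phosphatase induced by phosphate starvation, followed the same order with 30.9, 19.6, 154 and 11.6 FPKM, a difference of 2.91. The transporter gene PHT1;5 was at 1.04, 2.44, 12.2 and 2.09 FPKM, while the transporter gene PHT1;1 was at 43.9 FPKM in brm-1 and 46.1 in brd1,2,13. Among the genes that the reference names purple acid phosphatases, a group looked up after the values were seen, 9 of 22 tested were higher in brd1,2,13 and 0 in brm-1, with a median difference of 0.81. PAP5 was at 0.0300 FPKM in brm-1 and 3.25 in brd1,2,13, and PAP22 at 0.884 and 4.85, whereas the abundant members PAP10 (65.5 and 73.2) and PAP26 (109 and 97.0) were under 2-fold.

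The promoters of 3 of these genes are shown because they carry the letters of the P1BS element, the binding sequence of the phosphate starvation regulator PHR1. The windows are the 300 bases before the gene start of the RefSeq annotation of TAIR10.1, written 5′ to 3′ on the strand of the gene, and capitals mark GNATATNC. The regions are chr1:27466349-27466648 (minus strand) for PS2, chr2:19266457-19266756 (minus strand) for PAP14 and chr2:14443078-14443377 (minus strand) for MIR399d.
PS2: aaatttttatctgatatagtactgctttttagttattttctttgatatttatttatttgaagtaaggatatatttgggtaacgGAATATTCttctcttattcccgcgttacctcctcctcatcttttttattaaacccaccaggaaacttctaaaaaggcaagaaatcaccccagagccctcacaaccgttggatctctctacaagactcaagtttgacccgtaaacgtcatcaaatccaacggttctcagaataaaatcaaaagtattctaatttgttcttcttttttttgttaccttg
PAP14: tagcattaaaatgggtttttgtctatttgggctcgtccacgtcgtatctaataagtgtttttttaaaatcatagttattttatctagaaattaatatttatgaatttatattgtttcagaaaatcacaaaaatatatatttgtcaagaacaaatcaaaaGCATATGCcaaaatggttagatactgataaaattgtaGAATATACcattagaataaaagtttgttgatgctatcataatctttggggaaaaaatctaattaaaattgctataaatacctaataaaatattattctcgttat
MIR399d: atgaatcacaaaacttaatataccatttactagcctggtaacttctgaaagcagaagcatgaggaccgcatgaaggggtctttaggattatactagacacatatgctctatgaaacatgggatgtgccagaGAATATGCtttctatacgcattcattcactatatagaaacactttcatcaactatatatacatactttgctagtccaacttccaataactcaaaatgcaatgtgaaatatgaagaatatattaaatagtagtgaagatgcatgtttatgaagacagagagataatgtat
The match in PS2 begins at position -217 from the gene start, those in PAP14 at -141 and -104, and that in MIR399d at -169. GNATATNC was found in 54 of 413 windows (13.1%) of genes higher in brd1,2,13, in 34 of 423 (8.04%) of genes higher in brm-1, and in 1109 of 16342 (6.79%) of all tested genes with a record of their own. It was found in the windows of 2 of the 10 phosphate starvation genes. The search for P1BS was added after the values were seen, no test was made of these shares, and a match of letters is not evidence of binding.

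Of 26 tested records annotated as microRNA genes, 9 (34.6%) were higher in brd1,2,13, against 2.45% of all tested records. None was higher in brm-1, and 24 of 26 had a positive difference. The class was not among the planned groupings and was picked out after the values were seen. Short and weakly expressed loci were past 2-fold more often among all records, as given below, and several of these loci were weak. The median difference of the microRNA loci was 0.54, against 0.01 over all records. The median distance from WT was -0.35 in brm-1, 0.22 in brd1,2,13 and -0.27 in the combined mutant. In brm-1, 21 of the 26 were below WT. These values are of the transcripts of the loci, not of the mature microRNAs. MIR399d (AT2G34202) was at 0.366 FPKM in WT, 0.0553 in brm-1, 7.62 in brd1,2,13 and 0.0737 in the combined mutant, a log2 difference of 3.03. MIR399c was at 0.387, 0.255, 2.42 and 0.181 FPKM. MIR827, whose product targets NLA, a ubiquitin ligase of phosphate transporters, was at 1.04, 0.297, 2.32 and 0.337 FPKM. All 3 phosphate-related loci were highest in brd1,2,13 and at or under 1.04 FPKM in the other genotypes. MIR159b (AT1G18075, chr1:6220648-6220833) was at 16.1 FPKM in WT and 28.4 in brd1,2,13 and is listed at 0 in the brm-1 and combined mutants. Its record runs only from the 5p arm to the 3p arm of the hairpin, and no fold is given.

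The other microRNA loci past 2-fold were MIR156c, MIR408, MIR398b, MIR171b and MIR171c. MIR156c, whose product holds plants in the juvenile phase by targeting SPL transcripts, was at 4.20 FPKM in WT, 1.47 in brm-1, 5.23 in brd1,2,13 and 2.55 in the combined mutant. MIR408 (11.1, 7.70, 20.5 and 7.67 FPKM) and MIR398b (15.9, 5.32, 14.3 and 6.18) yield microRNAs of copper economy, and both loci overlap other records. MIR171b was at 1.25, 0.444, 2.23 and 1.12 FPKM and MIR171c at 0.872, 0.482, 2.14 and 0.368, and their products target GRAS family transcripts of the HAM group. The records under 2-fold ran from -0.50 for MIR822 to 0.88 for MIR398c, with MIR414 (64.3 FPKM in brm-1 and 79.7 in brd1,2,13) the most abundant. The mature sequences of the 9 loci, read from TAIR10.1 at the RefSeq annotation, are shown for the guide arm with the seed, bases 2 to 8, in capitals.
miR399d: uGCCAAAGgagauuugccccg
miR399c-3p: uGCCAAAGgagaguugcccug
miR827: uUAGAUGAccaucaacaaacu
miR159b-3p: uUUGGAUUgaagggagcucuu
miR156c-5p: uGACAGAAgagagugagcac
miR408-3p: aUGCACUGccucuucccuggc
miR398b-3p: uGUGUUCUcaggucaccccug
miR171b-3p: uUGAGCCGugccaauaucacg
miR171c-3p: uUGAGCCGugccaauaucacg
The miR399 pair shares the seed GCCAAAG, the miR171 pair shares UGAGCCG and the whole mature sequence, and the other 5 have a seed of their own, so the 9 loci make products of 7 seeds.

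On the list of vegetative phase change, which holds these precursors and the targets of miR156 and miR172, 5 of 18 tested genes were higher in brd1,2,13 and 0 in brm-1, with a median of 0.62. Besides MIR156C they were SPL9 (3.78 FPKM in brm-1 and 9.47 in brd1,2,13), a promoter of the adult phase, and the AP2-like floral repressors TOE1 (25.6 and 55.4), SNZ (9.64 and 20.5) and SMZ (2.33 and 5.85), of which SMZ overlaps another record. In WT these 4 target genes were at 5.78, 74.8, 17.9 and 7.12 FPKM, so that TOE1, SNZ and SMZ were near WT in brd1,2,13 and lower in brm-1. MIR156A was at 1.40 FPKM in WT, 0.144 in brm-1, 0.787 in brd1,2,13 and 0.184 in the combined mutant, under 2-fold after 1 FPKM was added. Of the 18 differences on the list 15 were positive and 3 negative. SPL3, whose locus overlaps another record, lay in the negative direction at 1.82, 9.18, 4.21 and 10.5 FPKM in the same order. Its difference of -0.97 was just under 2-fold.

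Flavonoid and anthocyanin genes were higher in brd1,2,13, with 8 of 18 tested past 2-fold, 0 higher in brm-1 and a median of 0.94. The median distance of the list from WT was -1.23 in brm-1 and -0.31 in brd1,2,13. Among enzymes of the pathway, DFR (dihydroflavonol reductase, AT5G42800) was at 21.2 FPKM in WT, 1.84 in brm-1, 11.8 in brd1,2,13 and 2.48 in the combined mutant. LDOX, which makes anthocyanidins, was at 22, 3.09, 14.5 and 3.48 FPKM, and FLS1, the flavonol synthase, at 57.3, 13.4, 35.1 and 8.74. In each, WT was highest, brd1,2,13 stood between WT and brm-1, and brm-1 and the combined mutant were lowest. The glutathione transferase gene TT19 was also past 2-fold, as were the hydroxylase gene F3H and the glucosyltransferase gene UGT75C1, whose loci overlap other records. The MYB activators of anthocyanin genes differed from each other: PAP1 (AT1G56650) was at 7.52, 0.987, 5.80 and 0.80 FPKM, whereas PAP2 (AT1G66390) was at 5.28, 1.38, 17.596 and 1.37, above WT in brd1,2,13. CHS, the entry enzyme, was at 185 FPKM in brm-1 and 368 in brd1,2,13, just under 2-fold at 0.98, and its locus overlaps another. Of the partners of these MYB activators, TTG1 (21.4 and 23.7 FPKM) and GL3 (1.17 and 1.09) were close in the mutants. TT8 (0.399 and 1.09 FPKM) and EGL3 (1.92 and 2.95) were lower in brm-1 than in brd1,2,13, under 2-fold.

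Light signalling genes had 5 of 13 tested members higher in brd1,2,13 and 0 in brm-1, with a median of 0.74. All 5 were B-box (BBX) proteins, zinc-finger regulators of the response to light. BBX30 (AT4G15248) was at 9.94 FPKM in WT, 1.2 in brm-1, 17.8 in brd1,2,13 and 0.691 in the combined mutant, a log2 difference of 3.10. BBX18 was at 44.8, 13.4, 40.3 and 8.04 FPKM, BBX32 at 7.59, 2.61, 8.76 and 1.08, and BBX31 at 9.22, 2.68, 8.36 and 1.63. BBX25 (32.9 FPKM in brm-1 and 87.1 in brd1,2,13) overlaps another record. These genes were near or above WT in brd1,2,13 and below it in brm-1. HY5, the bZIP factor that promotes light responses, was at 16.2 and 20.6 FPKM in the mutants, and PIF4, which opposes it, at 58.4 and 76.0. In the clock list, where 2 of 8 were higher in brd1,2,13, 0 in brm-1 and the median was 0.05, PRR9 was at 16.2, 5.24, 23.5 and 3.66 FPKM and ELF4 at 1.82, 0.553, 2.16 and 0.881, while CCA1 (50.6 FPKM in brm-1 and 93.5 in brd1,2,13) was under 2-fold. LUX (5.42 and 2.37 FPKM) and TOC1 (12.1 and 6.79) lay in the other direction, also under 2-fold, and both loci overlap other records. The G-box CACGTG, to which HY5, PIF and MYC factors bind, lies at -72 in the window of BBX30, at -14 in that of DFR and at -34 in that of JAZ7, a gene higher in brm-1 and described below. These 3 windows (TAIR10.1, chr4:8708541-8708840 on the plus strand, chr5:17166033-17166332 on the minus strand and chr2:14572730-14573029 on the plus strand) are shown, with the G-box in capitals, to set genes of opposite direction side by side.
BBX30: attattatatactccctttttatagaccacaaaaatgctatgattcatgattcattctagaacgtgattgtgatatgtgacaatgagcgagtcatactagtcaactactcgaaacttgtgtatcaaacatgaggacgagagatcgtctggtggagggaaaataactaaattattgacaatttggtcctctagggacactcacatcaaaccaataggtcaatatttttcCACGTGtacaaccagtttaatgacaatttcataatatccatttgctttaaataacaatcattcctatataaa
DFR: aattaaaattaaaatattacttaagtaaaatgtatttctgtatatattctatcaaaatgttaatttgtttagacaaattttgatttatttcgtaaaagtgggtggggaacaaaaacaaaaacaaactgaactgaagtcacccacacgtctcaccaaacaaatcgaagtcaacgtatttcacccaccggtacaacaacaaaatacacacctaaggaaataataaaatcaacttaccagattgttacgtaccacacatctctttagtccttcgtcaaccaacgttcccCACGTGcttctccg
JAZ7: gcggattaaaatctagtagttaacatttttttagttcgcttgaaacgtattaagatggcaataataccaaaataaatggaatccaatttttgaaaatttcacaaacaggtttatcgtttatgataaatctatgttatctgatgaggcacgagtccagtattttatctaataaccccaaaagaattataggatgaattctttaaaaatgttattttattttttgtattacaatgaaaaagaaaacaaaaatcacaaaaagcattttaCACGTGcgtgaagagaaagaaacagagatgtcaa
The 3 windows shown were picked by hand among those that hold the G-box. On the lists it was found in 1 of 13 light signalling windows (7.69%) and 6 of 18 flavonoid and anthocyanin windows (33.3%). The G-box was found in 10.7% of windows of genes higher in brd1,2,13, 8.27% of those higher in brm-1 and 8.24% of all windows. Its inner part, the ABRE core ACGTG, which every G-box also holds, was found in 37.3%, 35.0% and 26.9%. Site II, TGGGCC or TGGGCT, went the other way with 8.96%, 14.7% and 23.6%. For the W-box TTGAC these shares were 53.0%, 57.7% and 50.8%, for the evening element AAATATCT 6.78%, 8.98% and 6.12%, and for the GCC-box GCCGCC 0.969%, 2.13% and 2.31%. Each motif was searched on both strands, and none of the shares was tested.

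Growth-related auxin genes were higher in brd1,2,13, with 8 of 21 tested past 2-fold, 0 higher in brm-1 and a median of 0.74. Of these, 6 were SAUR19 to SAUR24, small auxin-induced proteins that promote cell expansion. SAUR21 was at 39.2 FPKM in WT, 6.94 in brm-1, 29.8 in brd1,2,13 and 11.5 in the combined mutant, SAUR20 at 33.1, 6.87, 26.1 and 10.6, and SAUR24 at 31.7, 8.07, 27.8 and 9.89. The auxin-response repressor IAA29 was at 13.7, 3.03, 11.8 and 6.50 FPKM, and IAA5 (2.19 FPKM in brm-1 and 9.19 in brd1,2,13) overlaps another record. In these genes brd1,2,13 was below WT and brm-1 further below it. SAUR19, SAUR20 and SAUR21 lie next to each other on chromosome 5 (5962897 to 5968938). SAUR22, SAUR23 and SAUR24 lie near them (5974567 to 5984112), and such close copies can share reads. Over all records whose reference symbol begins with SAUR, a family count made after the values were seen, 11 of 15 were higher in brd1,2,13 and 0 in brm-1. That count leaves out SAUR21. The auxin transporters PIN3 (59.9 and 78.3 FPKM), PIN7 (42.2 and 71.3) and PIN4 (29.4 and 50.4) and the repressor IAA2 (130 and 136) were under 2-fold. Of the 21 differences on the list 16 were positive and 5 negative.

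Genes of abscisic acid and dehydration had 5 of 19 tested records higher in brd1,2,13 and 0 in brm-1, with a median of 0.61. This list was above WT in both mutants, by a median of 0.65 in brm-1, 1.37 in brd1,2,13 and 0.44 in the combined mutant. NCED3, the key enzyme of abscisic acid synthesis under drought, was at 1.2 FPKM in WT, 1.19 in brm-1, 6.59 in brd1,2,13 and 1.06 in the combined mutant. HAI2, a protein phosphatase induced by the hormone, was at 0.343, 1.09, 4.72 and 0.615 FPKM. The LEA protein gene LEA7 was at 0.658, 45.4, 99.97 and 14.1 FPKM, the dehydrin gene RAB18 at 13.6, 42.9, 98.4 and 27.8, and the phosphatase gene ABI1 at 55.9, 41.1, 86.8 and 32.6, and these 3 loci overlap other records. A second record of RAB18 itself, at the same locus, was at 0.867 FPKM in brm-1 and 2.52 in brd1,2,13, under 2-fold. Of the 19 differences on the list 16 were positive and 3 negative. The negative ones, all under 2-fold, were CYP707A3 (5.30 FPKM in brm-1 and 2.52 in brd1,2,13), ABI5 (1.97 and 0.799) and COR15B (7.31 and 5.17). RD22 (269 FPKM in brm-1 and 412 in brd1,2,13), COR47 (142 and 172), ERD10 (81.6 and 96.5) and LTP3 (73.4 and 87.3) were under 2-fold. LTP3, a lipid transfer protein gene, was at 4.28 FPKM in WT, so that it stood far above WT in both mutants alike.

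**Figure D2:**
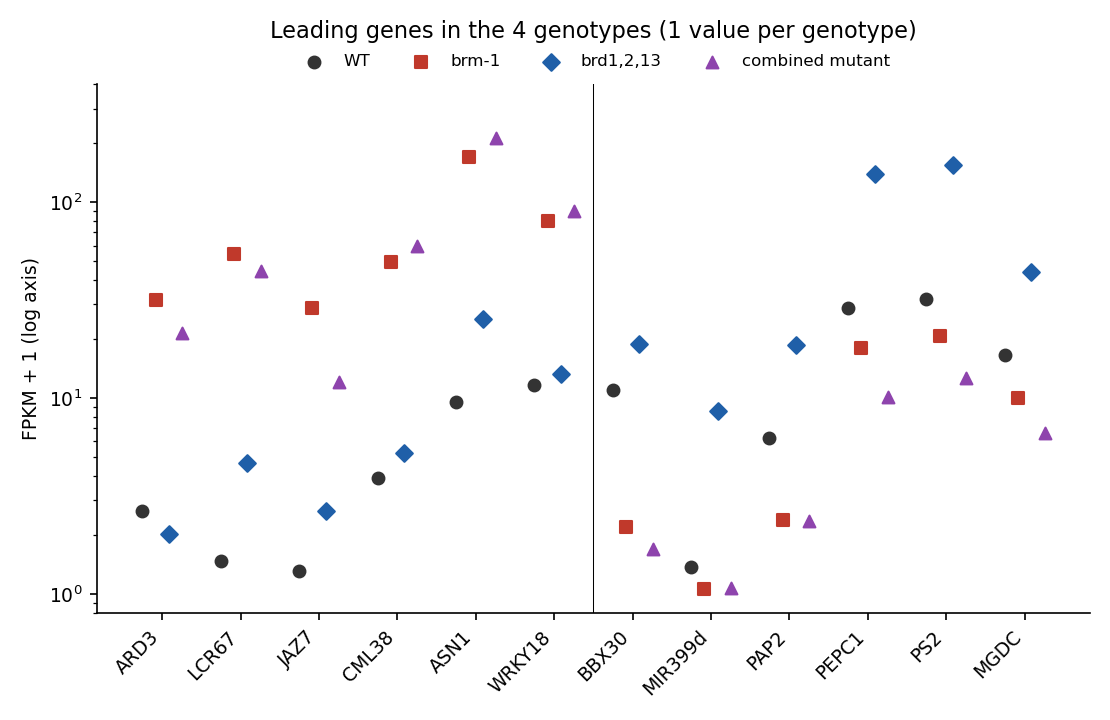
FPKM + 1 on a log axis of 12 leading genes in WT, brm-1, brd1,2,13 and the combined mutant, with 1 point per genotype and no error bar because the table holds 1 value per genotype. Left of the line are 6 genes higher in brm-1, where the combined mutant sits beside brm-1, and right of it 6 genes higher in brd1,2,13, such as PEPC1 with 138 FPKM in brd1,2,13 and 9.14 in the combined mutant.

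In the other direction, jasmonate genes were higher in brm-1. Jasmonate is the hormone of wounding and of defence against insects and necrotrophic fungi, its receptor removes JAZ repressors, and MYC2 then activates target genes that include the JAZ genes themselves. Of 25 tested genes 16 were higher in brm-1 and 1 in brd1,2,13, with a median of -1.44. The distance of the list from WT had a median of 1.59 in brm-1, 0.24 in brd1,2,13 and 1.35 in the combined mutant. All 9 JAZ genes of the list were among the 16. The list does not hold every JAZ gene. Of records whose reference symbol begins with JAZ, counted after the values were seen, 7 of 10 were higher in brm-1 and 0 in brd1,2,13. That count leaves out JAZ2 and JAZ9. JAZ7 was at 0.310 FPKM in WT, 27.6 in brm-1, 1.64 in brd1,2,13 and 11.1 in the combined mutant, JAZ10 at 3.35, 40.0, 3.72 and 33.3, JAZ5 at 0.991, 15.9, 1.74 and 10.01, and JAZ9 at 59.4, 167, 45 and 133. WT and brd1,2,13 were low and brm-1 and the combined mutant high in each. The regulators MYC2 (13.1, 49.3, 15 and 29.8 FPKM) and ORA59 (4.01, 30.3, 5.97 and 26.8) showed the same order.

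Genes for jasmonate synthesis and oxidation were split. CYP94C1, which oxidises the active hormone, was at 1.01 FPKM in WT, 16.5 in brm-1, 1.11 in brd1,2,13 and 12 in the combined mutant. CYP94B3 was at 1.06 FPKM in brm-1 and 1.07 in brd1,2,13. The synthesis genes LOX2 (26.2, 132, 54.0 and 163 FPKM), OPR3 (20.7, 64.5, 24.7 and 61.8) and LOX4 (2.42, 7.80, 2.77 and 7.01) were past 2-fold, while AOS (66.6 FPKM in brm-1 and 49.8 in brd1,2,13), AOC1 (94.4 and 93.7) and LOX3 (11.4 and 8.55) were not. Defensin genes differed too, with LCR67 at 0.481, 53.6, 3.67 and 43.7 FPKM and LCR68 at 237 FPKM in brm-1 and 222 in brd1,2,13. PDF1.2 was at 15.7 FPKM in brm-1 and 9.89 in brd1,2,13, under 2-fold. The exception in direction was VSP1, a storage protein gene induced by jasmonate, at 6.39, 3.70, 8.90 and 3.65 FPKM, and VSP2 was at 11.6 in brm-1 and 23.9 in brd1,2,13. The ABRE core was found in the windows of 18 of the 25 genes (72.0%) and the G-box in 6 (24.0%), beside the shares over all windows given above. A high share of the ABRE core was not particular to this list. It was found in 6 of 8 clock windows (75%) and in 7 of 12 of aliphatic glucosinolate genes (58.3%), of which 0 were past 2-fold. In salicylic acid and immunity genes it was found in 3 of 16 windows (18.8%).

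Salicylic acid and immunity genes were higher in brm-1 in 8 of 16 tested, with 0 higher in brd1,2,13, all 16 differences below 0 and a median of -1.01. Salicylic acid is the hormone of defence against biotrophic pathogens. ICS1, its synthesis enzyme, was at 9.59 FPKM in WT, 28.0 in brm-1, 12.5 in brd1,2,13 and 21.7 in the combined mutant, with PBS3, which acts after it, at 2.14, 29.2, 11.6 and 20.2. SARD1, a transcription factor that activates ICS1, was at 2.13, 14.8, 2.51 and 11.3 FPKM, and its locus overlaps another record. PAD3, the last enzyme of camalexin synthesis, was at 5.09, 24.8, 7.50 and 28.3 FPKM. The output genes PR1 (293 FPKM in brm-1 and 177 in brd1,2,13) and PR2 (30.9 and 19.4) were under 2-fold, although PR1 was at 53.8 in WT and 854 in the combined mutant. Of records whose symbol begins with WRKY, counted after the values were seen, 9 of 53 were higher in brm-1 and 0 in brd1,2,13, led by WRKY18 at 10.7, 79.3, 12.2 and 88.5 FPKM.

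Genes of touch, wounding and early stress were higher in brm-1 in 6 of 14 tested records and in brd1,2,13 in 0, with a median of -0.75. CML38, a calmodulin-like calcium sensor, was at 2.93 FPKM in WT, 48.3 in brm-1, 4.25 in brd1,2,13 and 58.3 in the combined mutant, with CML37 at 1.08, 8.51, 1.97 and 5.36. TCH3, another calmodulin-like protein gene, was at 96.3, 308, 79.3 and 376 FPKM, and the ethylene response factor gene ERF6 at 5.07, 25.1, 6.08 and 18.9. TCH4, a xyloglucan-modifying enzyme gene (264 FPKM in brm-1 and 61.3 in brd1,2,13), and WRKY40 (25.4 and 9.12) overlap other records. A second record of TCH4 itself, at the same locus, was at 2.61 FPKM in brm-1 and 1.89 in brd1,2,13, under 2-fold. Other members were close in the mutants, such as ZAT10 with 19.4 and 17.594 FPKM and ERF5 with 11.3 and 14.5.

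The list of energy starvation and inositol had 5 of 10 tested members higher in brm-1 and 2 in brd1,2,13, with a median of -1.31. ASN1, the asparagine synthetase induced in darkness and under sugar starvation, was at 8.54 FPKM in WT, 169 in brm-1, 24.4 in brd1,2,13 and 211 in the combined mutant, with SEN1, another dark-inducible gene, at 39.1, 219, 47.4 and 245. DIN10 (301 FPKM in brm-1 and 54.7 in brd1,2,13) overlaps another record, and the dark-inducible DIN2 (1.07 and 1.57) was under 2-fold. The inositol oxygenase genes MIOX2 (16.7, 67.5, 13.0 and 76.5 FPKM) and MIOX4 (0.134, 7.22, 0.570 and 5.70) were higher in brm-1, while MIOX1 was at 3.40 FPKM in brm-1 and 3.86 in brd1,2,13. Of the 3 inositol phosphate synthase genes 2 were higher in brd1,2,13, MIPS1 at 428, 77.5, 219 and 60.3 and MIPS2, with an overlapping locus, at 93.6, 33.2, 103 and 29.6. The third, MIPS3, whose locus also overlaps another, lay in the other direction at 12.3 FPKM in brm-1 and 8.78 in brd1,2,13, under 2-fold.

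Further leading genes in the brm-1 direction were outside the lists. The largest difference apart from the mutated genes was that of ARD3 (AT2G26400), an acireductone dioxygenase of the methionine salvage pathway, at 1.64 FPKM in WT, 30.5 in brm-1, 1.02 in brd1,2,13 and 20.4 in the combined mutant, a log2 difference of -3.96. NUDT6, a Nudix hydrolase, was at 4.14, 40.3, 3.97 and 25.3 FPKM, TAT3, a tyrosine aminotransferase, at 5.54, 40.8, 5.49 and 57.2, AIG1 at 7.57, 84.0, 10.3 and 83.4, and PHI-1 at 12.8, 78.6, 12.4 and 102.7. FTM1 was at 6.46, 35.3, 4.01 and 57.7 FPKM and the abscisic acid receptor gene PYL6 at 6.88, 34.1, 4.67 and 42.8. In these genes, too, the combined mutant was nearer to brm-1 than to brd1,2,13. In the brd1,2,13 direction, HIPP22, a metal-binding protein gene, was at 3.08, 6.76, 39.4 and 10.1 FPKM, DIP2 at 2.88, 4.35, 26.9 and 2.19, MLP328 at 77.7, 21.0, 113.7 and 21.5, the chitinase gene ChiC at 19.7, 11.6, 48.0 and 11.2, and GolS2, a galactinol synthase gene, at 3.29, 2.56, 13.3 and 1.28. HIPP22 was above WT in all 3 mutants, and MLP328 was below WT in brm-1 and the combined mutant.

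**Figure D3:**
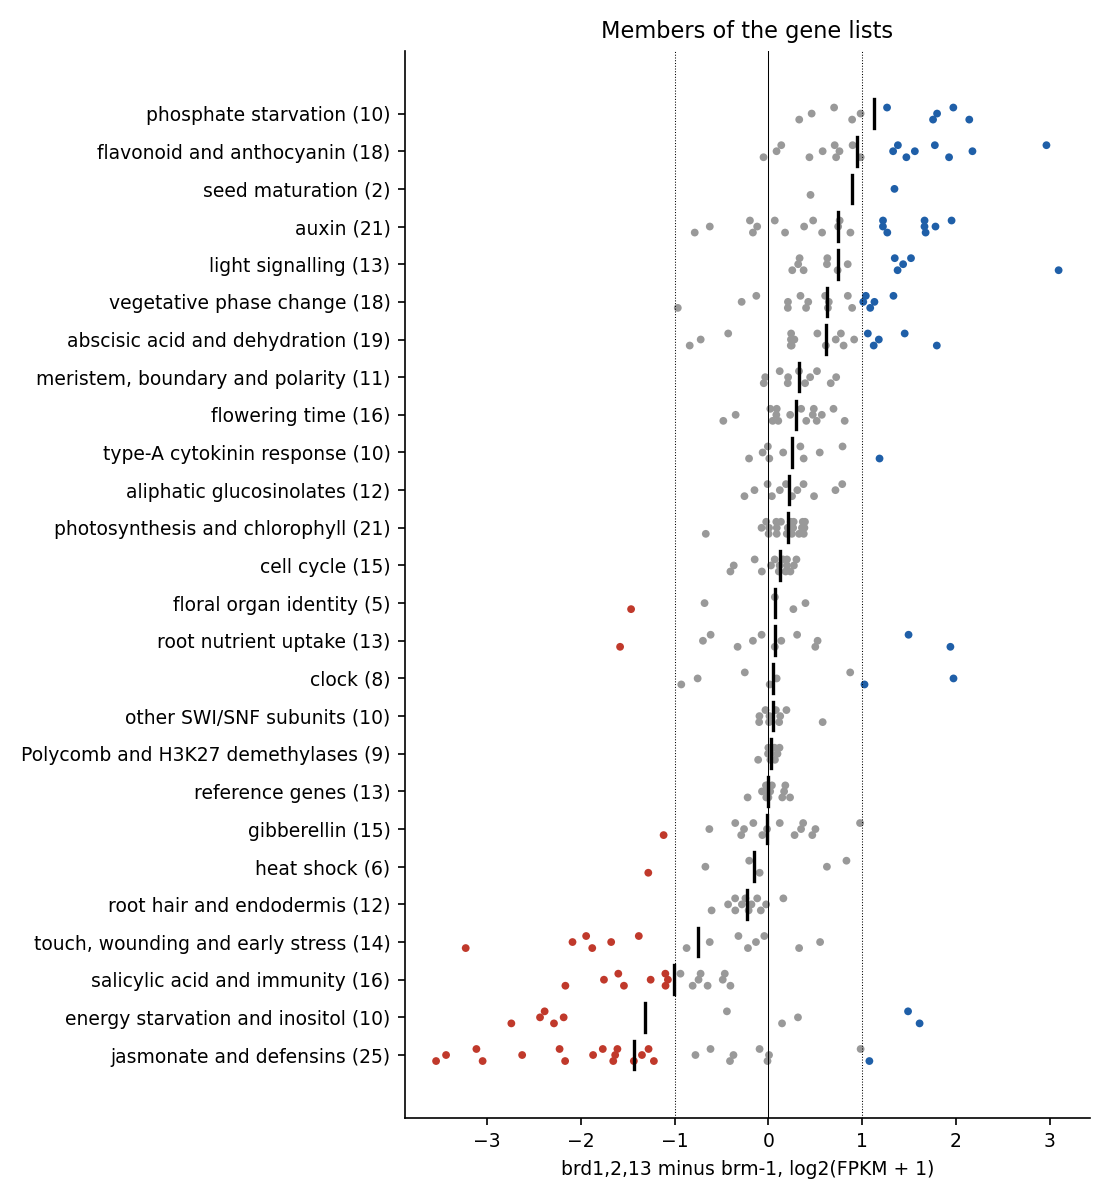
Log2 difference, brd1,2,13 minus brm-1 on the log2(FPKM + 1) scale, of each tested member of 26 gene lists, with 1 point per record and the number of records in brackets. Black bars are list medians, dotted lines mark 2-fold, blue points were higher in brd1,2,13 and red points higher in brm-1. Medians run from -1.44 for jasmonate and defensins to 1.12 for phosphate starvation.

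Several lists held few or no genes past 2-fold. Of the tested records for flowering time (16), meristem, boundary and polarity (11), aliphatic glucosinolates (12), the cell cycle (15), Polycomb and H3K27 demethylases (9), and reference genes (13), 0 were past 2-fold in either direction. FLC, the floral repressor, was at 5.33 FPKM in brm-1 and 8.04 in brd1,2,13 against 1.58 in WT, SOC1 at 34.3 and 48.3 against 17.8, and AGL24 at 4.61 and 8.07 against 27.4, so these genes left WT in the same direction in both mutants. The floral organ gene SEP3 was higher in brm-1, at 2.82 FPKM in WT, 23.4 in brm-1, 7.83 in brd1,2,13 and 20.6 in the combined mutant. The gibberellin 2-oxidase gene GA2OX2 (9.38 FPKM in brm-1 and 3.78 in brd1,2,13) was the 1 of 15 gibberellin genes past 2-fold, HSP17.6A (6.19 and 1.96) the 1 of 6 heat shock genes, and ARR16 (5.49 and 13.8), with an overlapping locus, the 1 of 10 records of type-A cytokinin response genes. A second record of ARR16 itself, at the same locus, was at 0.535 FPKM in brm-1 and 1.65 in brd1,2,13, under 2-fold. Among reference genes ACT2 was at 418 and 410 FPKM, UBC9 at 164 and 161, and PP2AA3 at 36.2 in both mutants.

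Markers of the organs in a whole seedling were present in both mutants. Of 21 photosynthesis and chlorophyll genes 0 were past 2-fold, with a median of 0.21 and levels such as 5272 FPKM in brm-1 and 6081 in brd1,2,13 for RCA, the activase of Rubisco. Of 12 root hair and endodermis genes 0 were past 2-fold, 11 had a negative difference and the median was -0.23, with PRP3 at 25.9 and 29.0 FPKM and CASP1, whose locus overlaps another, at 10.7 and 8.60. Summed over the 21 leaf genes the level was 82699 FPKM in brm-1 and 90494 in brd1,2,13, and over the 12 root genes 84.4 and 77.9, with 0 members of either list at 0. The part of organ proportions in the differences above was not tested. Root nutrient genes had 2 of 13 records higher in brd1,2,13 and 1 in brm-1. AMT1;2, an ammonium transporter gene, was at 84.0 FPKM in WT, 9.44 in brm-1, 28.4 in brd1,2,13 and 8.12 in the combined mutant, with the iron transporter gene IRT1 at 10.3, 1.2, 1.42 and 1.52, low in all 3 mutants. The nitrate transporter gene NRT1.8 (9.79 FPKM in brm-1 and 2.60 in brd1,2,13) overlaps another record. Only 2 of 10 seed maturation genes were tested, of which OLEO4 was at 13.0, 2.81, 8.68 and 3.20 FPKM.

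Placed by their distance from WT, most of the separating records were far from WT in brm-1 and near it in brd1,2,13. Of the 487 records higher in brm-1, 318 (65.3%) were at least 2-fold from WT in brm-1 and under 1.5-fold from it in brd1,2,13, all of them above WT. Of the 469 records higher in brd1,2,13, 234 (49.9%) met the same condition, all of them below WT. The converse, 2-fold from WT in brd1,2,13 and under 1.5-fold in brm-1, held for 10 records (2.05%) of those higher in brm-1, among them the mutated BRD1 and BRD13, and for 50 records (10.7%) of those higher in brd1,2,13, all 50 above WT. MIR399d, MIR399c, DIP2, NCED3, GolS2, IPS1, PAP5, PAP22 and PAP23 were among these 50. On opposite sides of WT, at least 1.5-fold each, were 27 records higher in brm-1 and 34 higher in brd1,2,13. The latter held MIR159b, BBX30, PAP2 (AT1G66390), PEPC1, PS2, MGDC, PAP14, ChiC and MIR827. On the same side of WT lay 71 and 70 records, and the remaining 61 and 81 met none of these conditions. The values of brm-1 and brd1,2,13 enter both the call and the class, so the classes describe the records and test nothing.

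**Figure D4:**
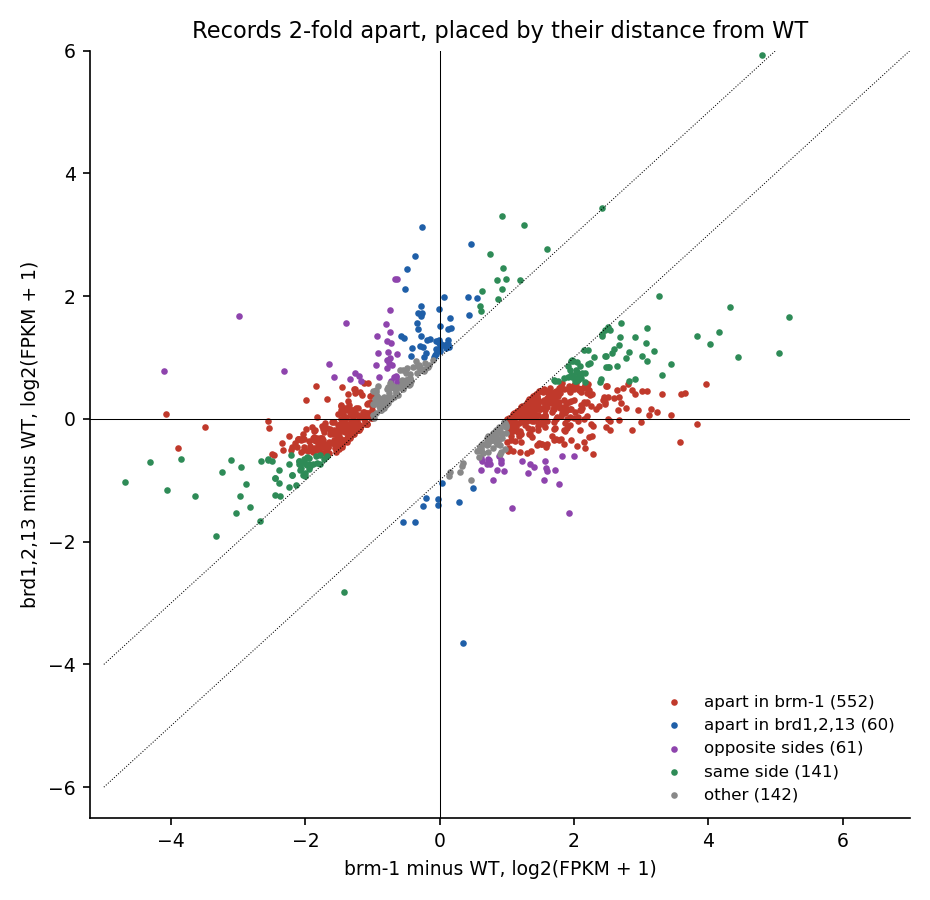
Distance from WT in brm-1 (horizontal) and in brd1,2,13 (vertical), as differences on the log2(FPKM + 1) scale, of the 956 records 2-fold apart between these mutants, coloured by class. The dotted lines are the 2-fold limit that selected the records, and most points lie along the horizontal axis, near WT in brd1,2,13.

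In the combined mutant nearly all separating records took the level of brm-1. Among those higher in brm-1 the combined mutant was nearer to brm-1 than to brd1,2,13 in 468 of 487 (96.1%), and among those higher in brd1,2,13 in 446 of 469 (95.1%). With the level of brd1,2,13 set to 0 and that of brm-1 to 1, the median position of the combined mutant was 1.04 and 1.05, with quartiles of 0.85 and 1.21 and of 0.88 and 1.21. Beyond the level of brm-1, on the side away from brd1,2,13, lay 270 and 280 records. Of the 50 records that were above WT in brd1,2,13 alone, 48 were nearer to brm-1, with a median position of 1.09. These records were selected by a value in brd1,2,13 far from WT and a value in brm-1 under 1.5-fold from it. For them, being nearer to brm-1 therefore cannot be told apart from being nearer to WT. Among them, MIR399d at 7.62 FPKM, NCED3 at 6.59 and IPS1 at 84.2 in brd1,2,13 were at 0.0737, 1.06 and 15.1 in the combined mutant. That mutant carries the same brd mutations. In this comparison, the combined mutant stayed with brd1,2,13 for BRD1, BRD2 and BRD13 themselves.

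**Figure D5:**
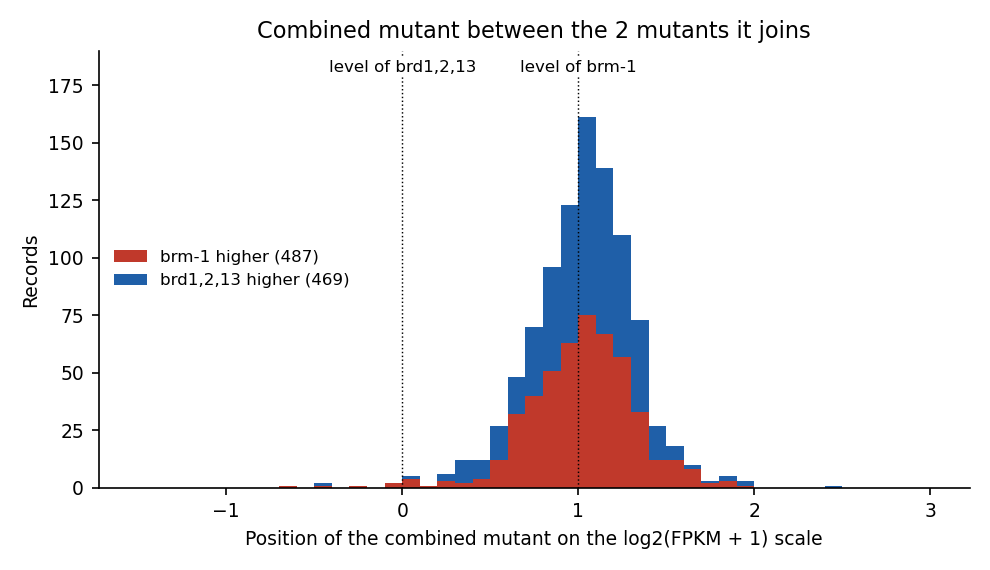
Number of records by the position of the combined mutant on the log2(FPKM + 1) scale, where 0 is the level of brd1,2,13 and 1 that of brm-1, for the 487 records higher in brm-1 (red) and the 469 higher in brd1,2,13 (blue), stacked. The counts peak at the level of brm-1, with medians of 1.04 and 1.05, and few records lie near 0.

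The separating records were spread over the genome. On chromosomes 1 to 5 between 2.27% and 2.63% of tested records were higher in brd1,2,13 and between 2.29% and 2.73% higher in brm-1. Shorter loci were past 2-fold more often, with 4.27% higher in brd1,2,13 and 3.82% higher in brm-1 among the shortest of 3 equal groups against 1.39% and 1.53% among the longest, and so were weakly expressed ones, with 2.97% and 2.94% in the lowest of 3 groups by level against 1.66% and 2.1% in the highest. Of the 956 records 122 had a neighbouring tested record past 2-fold in the same direction. How many would have one without any clustering was not worked out, and overlapping records count as neighbours, so this number is no measure of clustering. Runs of at least 3 such records were found at IAR3 to IOS1 on chromosome 1 (19199403 to 19218029) and AT5G24200 to AT5G24210 on chromosome 5 (8202756 to 8219619), higher in brm-1, and at the SAUR genes on chromosome 5. The family counts by symbol, here and for JAZ, SAUR and WRKY above, were made after the values were seen. Only families of at least 10 records with at least 15% of them past 2-fold were kept. A high share in these families is thus fixed by the selection. Of 26 XTH cell wall enzyme genes 6 were higher in brm-1 and 2 in brd1,2,13. XTH25 was at 0.291, 13.1, 1.40 and 18.7 FPKM in WT, brm-1, brd1,2,13 and the combined mutant and XTH31 at 300.7, 70.6, 169 and 62.4. Of 23 ERF genes 5 were higher in brm-1 and 0 in brd1,2,13, among them ERF2 at 18.5, 79.9, 18.9 and 50.6 FPKM. The iron deficiency factor gene BHLH101 was at 2.67, 0.0911, 2.40 and 0.244 FPKM.

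The counts depend on the added 1 FPKM, since with 0.1 FPKM 887 records were higher in brd1,2,13 and 818 in brm-1. Without replicate values, a difference of 2-fold cannot be set against the spread between libraries, and overlapping genes cannot be told apart because the sources used here do not say whether strand was counted.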

How the data were processed

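RNA from 12 libraries, 3 per genotype, was measured. The submitters' processing notes list the genome build TAIR10 and, as tools, Cuffdiff 2.1.1, Cufflinks 2.1.1 and TopHat without a version. The authors deposited 1 gene test table of the 6 pairs of genotypes, in which FPKM values are 1 per genotype and the libraries of a genotype were combined. The sources used here do not give the scaling of libraries or the use of strand. The table's own fold changes, test statistics, p values, q values and significance marks were not used.

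From the deposited FPKM, log2(FPKM + 1) was computed with Python 3.11.15, pandas 2.3.3 and numpy 2.4.6. The calculation was checked by putting known factors into the brm-1 values of abundant records, without noise. That check covers the arithmetic only. A difference of 2-fold or more was called, with no test. Distance from WT was classed at 2-fold and 1.5-fold. Of the tested records 1904 join several genes and were left out of lists, 6245 overlap another record, and 17120 of 17145 records of 1 gene were found in RefSeq TAIR10.1, which gave symbols. Of 392 entries on 27 lists 385 were matched. Named genes were the 15 largest differences in each direction among 4178 records of 1 named gene, with at least 5 FPKM in the higher mutant and no overlap, plus the mutated genes, list members past 2-fold, and the most abundant members under it. Other genes were named after their values were seen. The comparison and the lists were chosen with earlier results of these data known. Coordinates come from the table and are 1-based, except windows and mature microRNAs, which are from TAIR10.1. Alternatives were other pseudocounts, other folds, an FPKM minimum, rescaling and centring.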

Additional observations from a re-analysis of the deposited data

How the results depend on the processing

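With a pseudocount of 0.1 FPKM, 887 records were higher in brd1,2,13 and 818 in brm-1, and with none, over records above 0 in both, 950 and 870. At 1.5-fold the counts were 1512 and 1273, with 83 and 65 list members, and at 4-fold 39 and 90, with 5 and 17 list members. With 1.5-fold as both limits of the classes, 94 records were apart in brd1,2,13 only and 10 met no condition. With a pseudocount of 0.1 FPKM, 127 were apart in brd1,2,13 only, 157 on opposite sides, 378 on the same side and 231 in none. The share of records whose combined mutant was nearer to brm-1 was 90.9% with a pseudocount of 0.1 FPKM and 97.3% with at least 5 FPKM. The cause was not tested. The larger of the 2 counts thus changed sides, with more records higher in brm-1 at 2-fold and 4-fold and more higher in brd1,2,13 with a pseudocount of 0.1 FPKM, with none and at 1.5-fold, and also when overlapping records and those of several genes were left out (334 higher in brd1,2,13 and 329 in brm-1). List members past the limit, 46 higher in brd1,2,13 and 42 in brm-1 at 2-fold, were 40 and 41 with at least 5 FPKM. Rescaling to equal sums shifted all values by -0.02 on the log2 scale and centring by 0.00068, and neither moved any of 105 genes followed. With a pseudocount of 0.1 FPKM 14 of them moved, and with none 18. No paired analysis was possible because the table holds 1 value per genotype, and leaving out libraries was not possible for the same reason. The depth of the libraries is unknown.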
